A study of Mus musculus with 4 samples.

Results

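Muc4, the 3 ErbB receptor genes Egfr, Erbb2 and Erbb3, the EGF family ligand genes Areg, Ereg, Hbegf and Btc, and the receptor inhibitor genes Errfi1 and Lrig1 were examined in sorted Lgr5-GFP high cells of the mouse intestine. These 10 genes were taken by symbol from the 18436 genes of the deposited table, and each symbol occurred once. Muc4 was chosen by its lower level in CREPT-deleted cells in the same comparison, and the other 9 were added for their part in ErbB signalling with earlier results known, so their differences between the genotypes are given as a description, with standard errors but without a test.

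RNA was sequenced from 2 Lgr5-CREPTWT and 2 Lgr5-CREPTKO mice on the C57BL/6 background. All 4 carried the Lgr5-EGFP-IRES-creERT2 knock-in, which places GFP and a tamoxifen-inducible Cre under the Lgr5 gene and is mosaic among crypts, and the Lgr5-CREPTKO mice also carried CREPT fl/fl, in which exon 3 of the CREPT gene Rprd1b is flanked by loxP sites. Every mouse received tamoxifen by intraperitoneal injection at 1 mg a day for 5 days, and bright cells were sorted on day 7. The study used animals of both sexes aged 6 to 8 weeks, and the sex of each of these 4 mice was not given in the sources used here. Values are FPKM, fragment counts divided by transcript length and by the library total, so that levels can be set side by side between genes.

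The ErbB family couples the EGF-like ligands to the Ras, Raf, MEK and ERK kinases and to PI3K and AKT. The ligands are made as membrane proteins and released by proteases. EGFR binds them directly, ERBB2 has no known soluble ligand and acts as a partner, and ERBB3 has little kinase activity of its own. In intestinal crypts EGF signals sustain stem cell division, LRIG1 and ERRFI1 (MIG6) restrain the receptors, and MUC4 is a very large membrane mucin with EGF-like domains that has been described as a partner of ERBB2.

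Rprd1b was at 17.7 and 18.1 FPKM in the Lgr5-CREPTWT mice and at 6.65 and 7.36 FPKM in the Lgr5-CREPTKO mice, a reduction to 39.2% of the control mean that followed the labels. The FPKM columns summed to between 468830 and 499327. The smallest step among short RNA genes, an inverse measure of relative depth, is larger in a shallower library. It lay between 0.985 and 1.04 of that in Lgr5-CREPTWT mouse 1 (median over 36 gene lengths), while the absolute depth was not estimated. The 8 stem cell markers examined were present in every mouse and 8 stromal markers (collagens, Pdgfra, Dcn and others) summed to at most 0.68 FPKM in any mouse. Mice of the same genotype differed in the summed markers of other cell types. Summed Paneth cell markers were 3.07 times as high in Lgr5-CREPTKO mouse 2 as in mouse 1, summed immune markers 4.63 times as high, and summed goblet cell markers 1.66 times as high in Lgr5-CREPTWT mouse 2 as in mouse 1.

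The stretches before the transcription start are shown for Muc4, which had the widest difference between the genotypes, and for Areg and Errfi1, which with Hbegf varied most between the 2 Lgr5-CREPTWT mice among the members tested. These 3 were chosen with their values in view. Each stretch holds the 150 bases before the start on the plus strand of GRCm38.p6 (RefSeq), at chr16:32735736-32735885 for Muc4, chr5:91139449-91139598 for Areg and chr4:150854920-150855069 for 1 of the 2 starts listed for Errfi1. Capitals mark the letters TATAAA, the core of a TATA box, and TGACGTCA, the full cAMP response element. The Errfi1 start was picked because it held TATAAA, which the other listed start did not, so its TATA box was fixed by that choice. That start lies inside the gene, which begins at 150853796.
Muc4: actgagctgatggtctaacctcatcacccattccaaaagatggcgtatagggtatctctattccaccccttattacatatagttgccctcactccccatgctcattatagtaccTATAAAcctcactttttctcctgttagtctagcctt
Areg: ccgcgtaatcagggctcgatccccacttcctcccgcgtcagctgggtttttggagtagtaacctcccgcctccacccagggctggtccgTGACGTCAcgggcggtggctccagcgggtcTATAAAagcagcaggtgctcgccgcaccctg
Errfi1: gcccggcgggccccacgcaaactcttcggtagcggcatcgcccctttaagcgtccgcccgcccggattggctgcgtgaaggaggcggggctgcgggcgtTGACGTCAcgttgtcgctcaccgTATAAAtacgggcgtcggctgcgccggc

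Areg and the Errfi1 start shown each held a cAMP response element followed by a TATA box. The TATA box began 31 bases before the start in Areg and 28 in Errfi1, and the response element 61 and 51 bases before it. The Muc4 stretch held a TATA box 36 bases before the start and no full cAMP response element. Searched on both strands, TATAAA occurred in 13.6% of the 32851 promoters of 300 bases in the RefSeq table, TGACGTCA in 1.79% and both together in 0.170%. Promoters were matched for 7 of the 10 genes, and besides these 3 genes none of the 7 held either motif. Erbb3, Ereg and Hbegf had no matched promoter and were not searched. The AP-1 site TGANTCA, present in 7.81% of all promoters, and the TCF/LEF site CTTTGAT, in 3.73%, were in none of the 7. The GC box GGGCGG, in 35.7% of all promoters, was in 4 of the 7 (Areg, Egfr, Errfi1 and Lrig1). A match of letters is no evidence that a factor binds there.

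Muc4 was lower in the CREPT-deleted cells. Muc4 lies on chromosome 16 from 32735886 to 32782391 on the plus strand, and its longest coding transcript has 27 exons and 11277 bases. It was at 40.0 and 41.6 FPKM in the 2 Lgr5-CREPTWT mice and at 16.3 and 20.1 FPKM in the 2 Lgr5-CREPTKO mice. The genotypes did not overlap, the control mice lay within 1.04-fold of each other and the CREPT-deleted mice within 1.23-fold. The control mean was 40.8 ± 1.12 FPKM (SD, n = 2), the mean after deletion was 18.2 ± 2.69 FPKM (SD, n = 2) or 44.6% of it, and the fitted log2 fold change was -1.15 (standard error 0.118). By its mean over the 4 mice, Muc4 stood at percentile 77.0 of the genes tested.

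**Figure D1:**
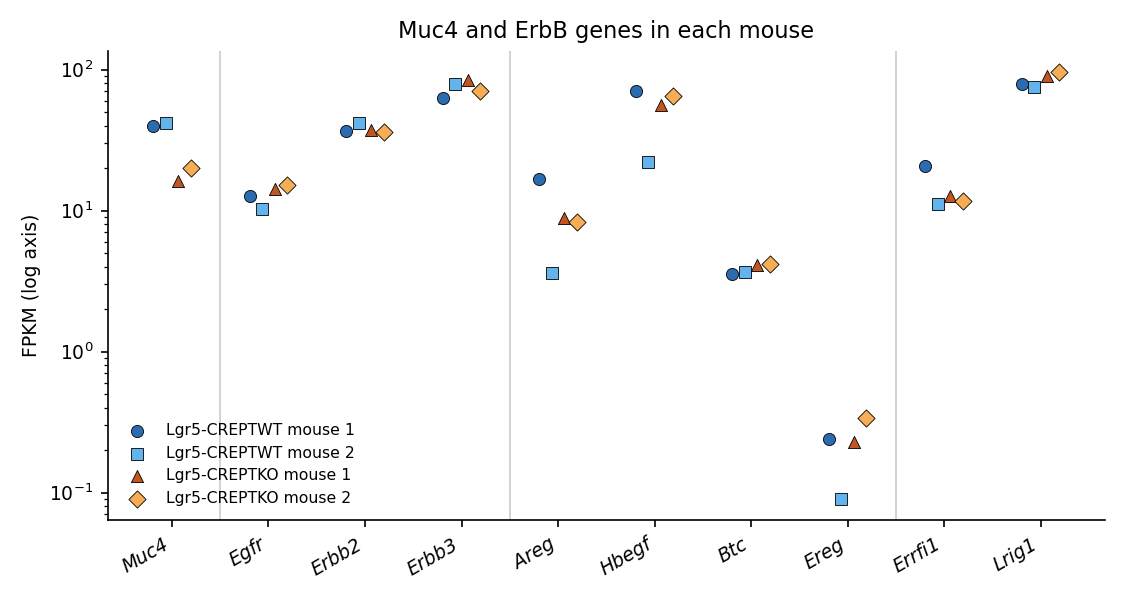
FPKM of the 10 genes on a log axis, with 1 point for each mouse, in the order mucin, receptors, ligands and inhibitors. Muc4 at 40.0 and 41.6 against 16.3 and 20.1 FPKM stands apart by genotype, while in Areg and Hbegf the widest gap is between the 2 Lgr5-CREPTWT mice.

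Of the 9 genes whose mean reached 0.5 FPKM, all except Ereg, Muc4 alone passed the study's threshold, an adjusted p below 0.05 with an absolute log2 fold change above 1, in limma's test over all 12621 genes. Over all genes tested, 1.01% passed it with a lower level in the Lgr5-CREPTKO mice and 0.127% with a higher level. At an adjusted p alone the shares were 2.67% and 0.412%, and Muc4 was again the 1 member of the 9. Since Muc4 was chosen by this comparison, nothing follows from that count. Muc4 did not pass when any 1 of the 4 mice was left out, when genes of low FPKM were kept in, or when the variance was not fitted to intensity, although its log2 fold change stayed between -1.30 and -1.0 under every alternative.

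Of the same 9 genes, 1 had both Lgr5-CREPTKO mice below both control mice (Muc4) and 3 had both above (Egfr, Lrig1 and Btc), whereas 31.0% of all genes tested lay below and 25.6% above in this sense. The median log2 fold change of the 9 was 0.14, against -0.01 for all genes tested. Outside Muc4, the fitted differences ran from -0.30 to 0.62.

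**Figure D2:**
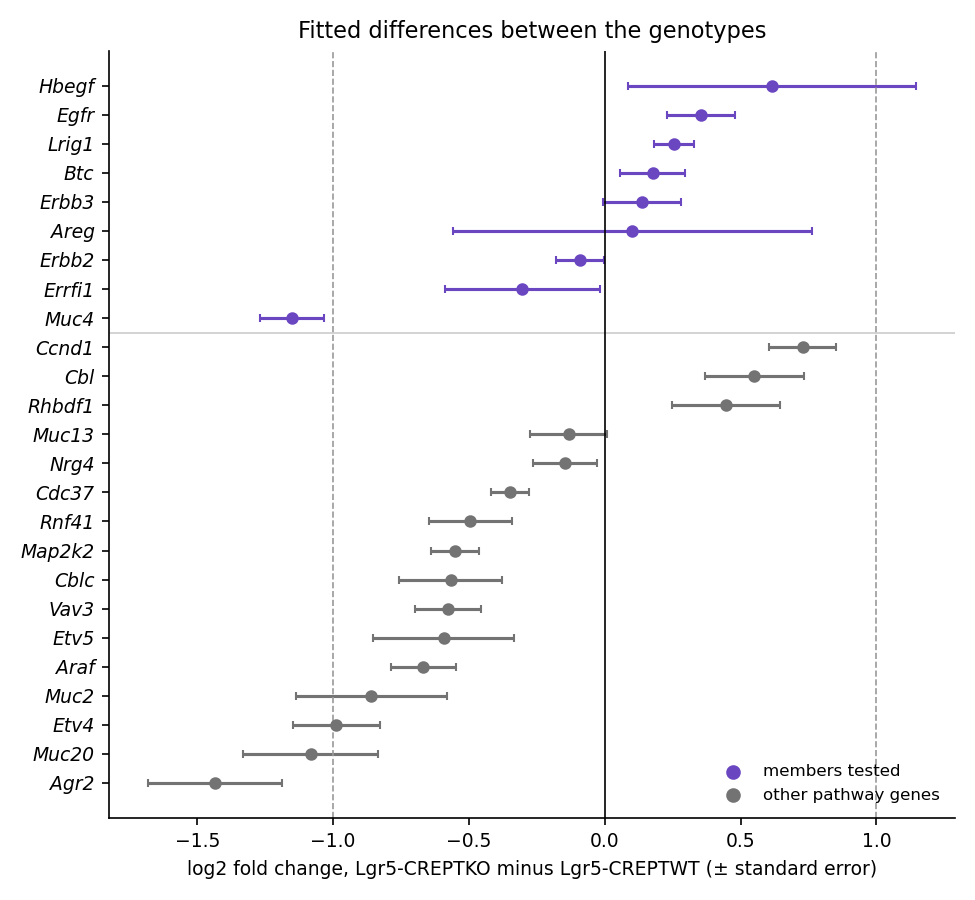
Fitted log2 fold changes with standard errors for the 9 members tested and for 16 other pathway genes, with dashed lines at -1 and 1. Muc4, at -1.15, is the 1 member beyond the dashed line, and Areg and Hbegf have the widest standard errors of the members, 0.662 and 0.531.

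The 3 receptors kept the same order in every mouse, with Erbb3 highest, Erbb2 between and Egfr lowest, and none of these ranges met. Egfr, the receptor that binds EGF-like ligands directly, was at 12.7 and 10.3 FPKM in the Lgr5-CREPTWT mice and at 14.3 and 15.1 FPKM in the Lgr5-CREPTKO mice. Both deleted mice were therefore above both controls, at 128% of the control mean, with a log2 fold change of 0.35 (standard error 0.125). That fold change was 0.21 without Lgr5-CREPTWT mouse 2, the lower control, and 0.50 without Lgr5-CREPTWT mouse 1. Erbb2, the co-receptor, was at 36.7 and 41.6 FPKM in the controls and at 37.2 and 36.1 FPKM after deletion. Its genotypes overlapped and its log2 fold change was -0.09 (standard error 0.0892), a difference smaller than that between the 2 controls. Erbb3, which signals through its partners and carries PI3K binding sites, was at 62.9 and 78.6 FPKM in the controls and at 84.4 and 70.9 FPKM after deletion. Again the mice overlapped, and the log2 fold change of 0.14 (standard error 0.144) turned to -0.02 without Lgr5-CREPTWT mouse 1.

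Egfr and Erbb2 lie on chromosome 11, from 16752203 to 16913907 and from 98412484 to 98437716, and Erbb3 on chromosome 10 from 128567523 to 128589635. Erbb4, the fourth receptor of the family, was not analysed here.

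Hbegf led the ligands. It encodes heparin-binding EGF-like growth factor and was at 70.3 and 22.0 FPKM in the Lgr5-CREPTWT mice and at 56.3 and 65.4 FPKM in the Lgr5-CREPTKO mice. The deleted mice fell between the controls, which lay 3.19-fold apart. Its log2 fold change of 0.62 had a standard error of 0.531 and became -0.21 without Lgr5-CREPTWT mouse 2 and 1.44 without Lgr5-CREPTWT mouse 1, so no direction can be given.

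Areg, which encodes the ligand amphiregulin and lies on chromosome 5 from 91139599 to 91148432, behaved in the same way. It was at 16.9 and 3.63 FPKM in the Lgr5-CREPTWT mice, 4.64-fold apart, and at 8.85 and 8.33 FPKM in the Lgr5-CREPTKO mice, again between the 2 controls. The log2 fold change of 0.10 (standard error 0.662) ran from -0.93 without Lgr5-CREPTWT mouse 2 to 1.14 without Lgr5-CREPTWT mouse 1. On the linear scale the mean after deletion was the lower of the pair, 8.59 against 10.2 FPKM.

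Btc, the betacellulin gene, was low and even, at 3.53 and 3.69 FPKM in the controls and 4.14 and 4.15 FPKM after deletion. Both deleted mice lay above both controls by a small margin, with a log2 fold change of 0.18 (standard error 0.119). Ereg, which encodes epiregulin, was barely detected, at 0.24 and 0.09 FPKM in the controls and 0.23 and 0.34 FPKM in the deleted mice, below the level at which genes were tested. Ereg, Areg and Btc lie near each other on chromosome 5, Ereg from 91074617 to 91093649 and Btc from 91357261 to 91402994.

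The 6 other ligands examined were low or nearly absent. Tgfa, the gene of TGF-alpha, was between 5.78 and 6.91 FPKM in the 4 mice, and Nrg4, a neuregulin that binds ERBB4, was between 4.15 and 4.86 FPKM. Neither passed the test (adjusted p = 0.506 and 0.491 in limma's moderated test). Egf itself reached at most 0.46 FPKM and Epgn, Nrg2 and Nrg3 at most 0.1 FPKM. Among the 10 ligands examined, which did not include Nrg1, Hbegf was thus the highest in every mouse, followed by Areg in 3 mice, whereas in Lgr5-CREPTWT mouse 2 Areg at 3.63 FPKM was below Tgfa, Nrg4 and Btc.

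Lrig1, a membrane protein that promotes removal of ErbB receptors and marks crypt stem cells, was at 79.3 and 75.8 FPKM in the Lgr5-CREPTWT mice and at 89.4 and 95.9 FPKM in the Lgr5-CREPTKO mice. Both deleted mice were higher, at 119% of control, and the log2 fold change was 0.25 (standard error 0.0738). Lrig1 was the most abundant of the 10 genes on the mean of the 4 mice, at percentile 93.2 of the genes tested. It lies on chromosome 6 from 94604529 to 94700298. Errfi1, whose product binds the EGFR kinase and blocks it, lies on chromosome 4 from 150853796 to 150868889 and was at 20.6 and 11.2 FPKM in the controls and at 12.8 and 11.7 FPKM after deletion. Lgr5-CREPTWT mouse 1 alone was high, and the log2 fold change of -0.30 (standard error 0.284) turned to 0.12 without that mouse.

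On the log2 scale, the difference between the 2 Lgr5-CREPTWT mice was therefore larger than that between genotypes for Areg, Hbegf, Errfi1, Erbb3 and Erbb2. Of all genes tested, 0.547% differed as much as Areg between the 2 Lgr5-CREPTWT mice on the log2 scale, 0.935% as much as Hbegf and 2.86% as much as Errfi1. Between the 2 Lgr5-CREPTKO mice the same 3 genes were ordinary, since 64.8%, 29.8% and 52.4% of genes differed at least as much as Areg, Hbegf and Errfi1.

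Some genes that ERK is known to induce also differed between the 2 control mice. Among 18 tested genes of ERK feedback and response, Dusp5, Spry1, Fos, Fosl1, Egr1 and Mafk differed at least 2-fold between the Lgr5-CREPTWT mice, 6 of 18 (33.3%) against 3.68% of all genes tested, and all 6 were higher in mouse 1. None of the 18 differed 2-fold between the Lgr5-CREPTKO mice, where 4.81% of all genes did. Egr1, an immediate early transcription factor, was at 370.8 and 132.9 FPKM in the controls and at 285.1 and 336.1 FPKM after deletion. Dusp5, an ERK phosphatase, was at 12.6 and 3.83 FPKM in the controls and at 10.5 and 10.02 FPKM after deletion. Of the 18 genes, 12 were lower in Lgr5-CREPTWT mouse 2 than in mouse 1, beside 6276 of all 12621 tested. Etv4, Etv5 and Myc were among those higher in mouse 2, with Etv5 at 2.07 FPKM in mouse 1 and 3.59 FPKM in mouse 2. Lgr5-CREPTWT mouse 2 was the lowest of the 4 mice in 9 of the 18 genes, against 26.9% of all genes tested. The same pattern was not limited to that list. Atf3, a stress response transcription factor, was at 237.9 and 49.96 FPKM in the controls and at 117.6 and 142.4 FPKM after deletion, and Dusp1, Fosb, Jun and Cyr61, other early response genes, were likewise lowest in Lgr5-CREPTWT mouse 2. The 6 listed genes and these 5 were chosen with their values in view, and this difference between 2 mice of 1 genotype was not tested.

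**Figure D3:**
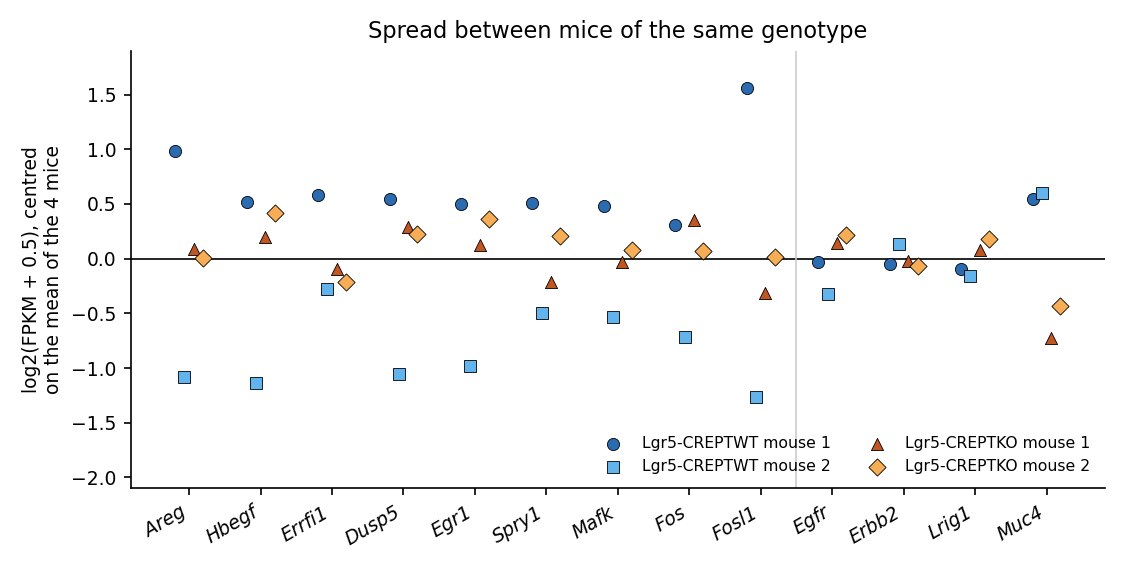
Log2(FPKM + 0.5) of each mouse centred on the mean of the 4 mice, for Areg, Hbegf, Errfi1 and 6 ERK response genes (left) and for Egfr, Erbb2, Lrig1 and Muc4 (right). The 6 are those of the 18 tested that differed at least 2-fold between the Lgr5-CREPTWT mice. Lgr5-CREPTWT mouse 2 is the lowest point in each of the 9 genes on the left and mouse 1 the highest in all of them except Fos. Mouse 2 is also the lowest point in Egfr and Lrig1 on the right, at -0.32 and -0.16. The 2 control mice lie close together in Muc4, at 0.55 and 0.60.

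The wider pathway showed no gene past the threshold. Of 105 other genes in lists of ErbB receptors, ligands, inhibitors, shedding, adaptors, ERK targets and mucins, 95 were in the table and 86 were tested. By limma's moderated test 0 passed in either direction, with the fold change limit or with adjusted p alone. Of all genes tested, 1.01% passed as lower and 0.127% as higher with that limit, and 2.67% and 0.412% by adjusted p alone. At such shares, 0 among 86 genes says little about the pathway. An unadjusted p below 0.05 was reached by 10 with a lower and 7 with a higher level, beside 1916 and 1170 of all 12621. Both deleted mice lay below both controls in 21 of the 86 and above in 30, where 31.0% of all genes tested lay below and 25.6% above, and their median log2 fold change was 0.04.

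Among inhibitors and turnover factors, the 13 tested genes besides Errfi1 and Lrig1 had a median of 0.05. Cblc, Cbl and Rnf41, 3 ubiquitin ligases that mark receptors for removal, had the widest differences. Cblc was at 26.0 and 34.5 FPKM in the controls and at 17.5 and 23.0 FPKM after deletion, and Rnf41, which acts on ERBB3, at 6.55 and 8.44 against 4.89 and 5.39 FPKM. Cbl went the other way, from 8.25 and 5.81 to 11.0 and 9.77 FPKM. None of the 3 overlapped between genotypes, but they were the widest of their list, and 31.0% of all genes tested lay below and 25.6% above. None passed the test (adjusted p = 0.160, 0.140 and 0.156 for Cblc, Rnf41 and Cbl by limma).

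In the shedding and folding list, the proteases Adam10 and Adam17, which release EGF-like ligands, had log2 fold changes of 0.07 and 0.08. The list's widest difference was that of Agr2, a disulfide isomerase needed for EGFR folding and for mucin production, at 212.6 and 343.0 FPKM in the controls and at 111.3 and 89.1 FPKM after deletion (log2 fold change -1.43, adjusted p = 0.0577 by limma). Agr2 is also on the goblet cell list. Cdc37, the kinase chaperone, differed by -0.35 on the log2 scale (adjusted p = 0.0721) and Rhbdf1, a cofactor of ADAM17, of 0.45 (adjusted p = 0.251).

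For the cytoplasmic kinases and adaptors, 40 genes were tested and their median was 0.05. Araf, a kinase upstream of MEK, was at 36.9 and 36.6 FPKM in the controls and 20.5 and 25.6 FPKM after deletion (log2 fold change -0.67, adjusted p = 0.0608 by limma). Map2k2, which encodes MEK2, was at 54.3 and 61.2 against 38.0 and 40.4 FPKM (log2 fold change -0.55, adjusted p = 0.0514). Vav3, a guanine nucleotide exchange factor, was at 4.99 and 4.96 against 3.03 and 3.32 FPKM (adjusted p = 0.0741).

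Of the ERK target list, Etv4, a transcription factor of the ETS family, was at 3.90 and 4.34 FPKM in the controls and 2.03 and 1.64 FPKM after deletion, and its difference was -0.99 on the log2 scale (adjusted p = 0.0513 by limma). Etv5, its close relative, differed by -0.59 (adjusted p = 0.242). Ccnd1, which encodes cyclin D1, was at 56.3 and 52.0 FPKM in the controls and at 80.8 and 100.2 FPKM after deletion, 0.73 higher on the log2 scale (adjusted p = 0.0553). The genotypes did not overlap in these 3 genes, the widest of their list, where 31.0% of all genes tested lay below and 25.6% above. Etv4 and Ccnd1, which differed in opposite directions, were past neither the adjusted p of 0.05 nor the fold change limit of 1.

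The membrane mucins differed among themselves. Muc13, the highest of the 4 membrane mucins examined, was at 490.2 and 644.2 FPKM in the Lgr5-CREPTWT mice and at 503.7 and 521.3 FPKM in the Lgr5-CREPTKO mice, with overlapping genotypes (log2 fold change -0.13, adjusted p = 0.615 by limma). Muc20 was at 3.06 and 1.94 FPKM against 0.80 and 0.99 FPKM, and its log2 fold change of -1.08 was close to that of Muc4 but did not pass the test (adjusted p = 0.0865). Muc1 was at 0.39 and 0.65 against 0.05 and 0.15 FPKM and was too low to be tested. Of the gel-forming mucins, Muc2, the main goblet cell mucin, was at 41.3 and 70.8 FPKM in the controls and 26.1 and 33.6 FPKM after deletion (log2 fold change -0.86, adjusted p = 0.150), and Muc5ac and Muc6 were at or below 0.08 FPKM.

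Muc20 is the neighbour of Muc4 on the opposite strand, from 32777419 to 32797435 of chromosome 16, and 627 of the 11757 exonic bases of Muc4 in GENCODE M21 lie in exons of Muc20. Whether the libraries kept the strand was not given in the sources used here, so reads from those bases cannot be told apart. With control means of 40.8 FPKM for Muc4 and 2.50 FPKM for Muc20, the value of Muc20 is the less certain of the pair. The 7 tested genes other than Muc4 within 250 kb were Slc51a, Tfrc, Tnk2, Muc20, Rubcn, Fyttd1 and Lrch3. Apart from Muc20 they had log2 fold changes from -0.16 to 0.37, and none passed the test (smallest adjusted p = 0.0865, of Muc20, by limma). Of the other members, the exons of Lrig1 shared 144 bases with Slc25a26, those of Ereg 141 with Gm19610 and those of Erbb2 9 with Mien1, each on the opposite strand.

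**Figure D4:**
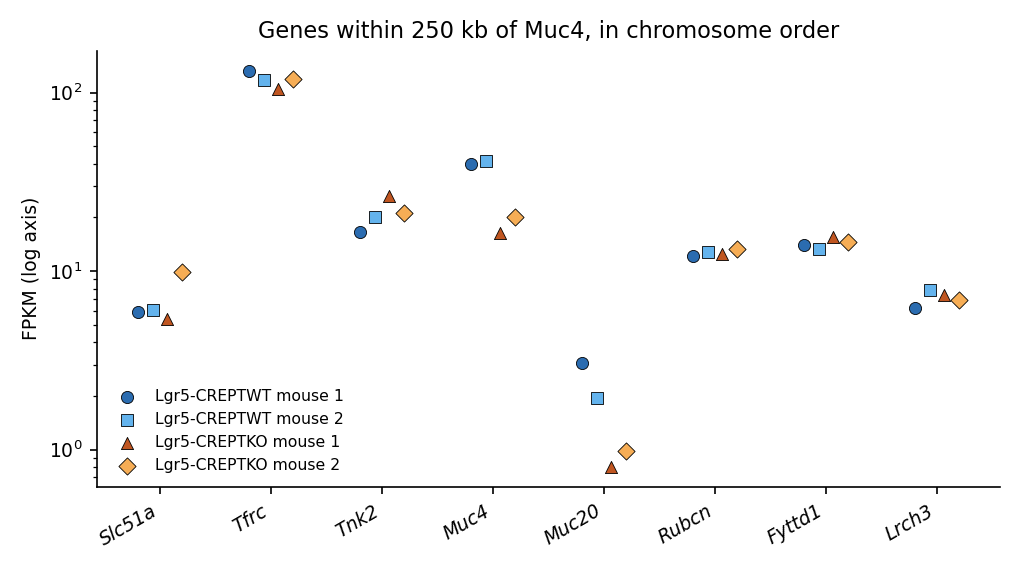
FPKM on a log axis of the tested genes within 250 kb of Muc4, in chromosome order, with 1 point for each mouse. Muc4 and Muc20 are the 2 genes in which both Lgr5-CREPTKO points lie below both Lgr5-CREPTWT points, as in 31.0% of all genes tested. In Tnk2 and Fyttd1 both lie above, as in 25.6% of all genes tested.

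Goblet, enteroendocrine and tuft cell markers were lower in the same mice as Muc4. In bulk RNA, fewer cells of a type and less RNA per cell cannot be told apart. The 12 goblet markers in the table (Muc2, Tff3, Spink4 and others) summed to 1522 and 2527 FPKM in the controls and to 862.5 and 975.2 FPKM in the deleted mice. Both deleted mice were below both controls in 10 of the 12, against 31.0% of all genes tested, and 3 passed the threshold as lower (Spink4, Ccl9 and Ern2), against 1.01% of all genes. The 12 enteroendocrine markers summed to 227.3 and 327.3 against 74.9 and 83.0 FPKM, and 7 of them (Chgb, Cck, Ghrl, Tac1, Neurod1, Pax4 and Cpe) passed as lower, against the same 1.01%. The 8 tuft markers summed to 28.6 and 62.8 against 24.3 and 8.98 FPKM, with 0 past it by limma. At an unadjusted p below 0.05, 5 of the 8 were lower, beside 1916 of all 12621 genes tested. No marker of these 3 lists was at 0 in any mouse. Their part in the lower Muc4 was not tested. Between the 2 Lgr5-CREPTWT mice the goblet sum differed 1.66-fold, the enteroendocrine sum 1.44-fold, the tuft sum 2.19-fold and Muc4 1.04-fold. Single enteroendocrine markers ranged between these mice from 1.04-fold for Chga to 2.84-fold for Gip, which was at 39.0 and 110.6 FPKM.

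Stem cell markers were not lower in the mice with less Muc4. Lgr5, Ascl2, Olfm4, Smoc2, Axin2, Slc12a2 and Rgmb, 7 of 8, were above both controls in both deleted mice, as were 25.6% of all genes tested, and with Tnfrsf19 the 8 had a median log2 fold change of 0.31, 0 past the threshold by limma (unadjusted p below 0.05 in 5, all with a higher level). Paneth cell markers were split, at 857.4 and 2628 FPKM in the 2 deleted mice around 1448 and 1058 FPKM in the controls, while Muc4 in the deleted mice differed 1.23-fold. Enterocyte markers overlapped too, at 451.8 and 566.3 against 319.3 and 561.2 FPKM, and so did immune markers, at 6.89 and 9.58 against 2.98 and 13.8 FPKM.

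**Figure D5:**
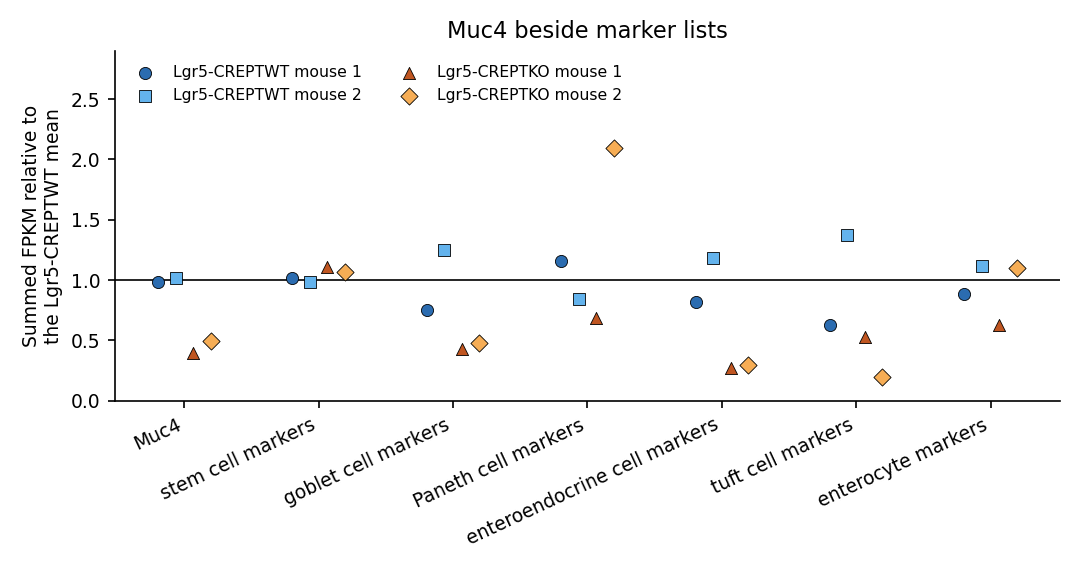
Muc4 and the summed FPKM of 6 marker lists in each mouse, divided by the mean of the 2 Lgr5-CREPTWT mice. Muc4 lies at 0.98 and 1.02 in the controls and at 0.40 and 0.49 after deletion, and the goblet sum at 0.75 and 1.25 against 0.43 and 0.48.

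The genes whose 4 values followed Muc4 most closely were 2210016F16Rik, Arpin, Arfgap2, Ticam1 and Wbp1, by the distance between centred log2 profiles over the 4 mice among 9019 other genes whose mean reached 5 FPKM (distances 0.0911 to 0.140). Arpin, whose product inhibits the Arp2/3 complex, was at 23.8 and 23.4 FPKM in the controls and 9.91 and 11.3 FPKM after deletion. Arfgap2, a coat protein regulator of the Golgi, was at 31.2 and 30.9 against 13.3 and 15.4 FPKM, and Ticam1, the adaptor TRIF of Toll-like receptors, at 10.8 and 12.5 against 4.39 and 5.91 FPKM. None of the 5 is on a list used here. With 4 mice, likeness to Muc4 means little more than a drop of similar size with little spread within a genotype.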

How the data were processed

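RNA-seq of Lgr5-GFP high cells from 2 Lgr5-CREPTWT and 2 Lgr5-CREPTKO mice was examined, with mice assigned by column names that match the sample titles. The authors deposited FPKM values for 18436 genes, rounded to 2 decimals, after mapping reads to GRCm38.p6 transcripts with Bowtie2 and quantifying with RSEM (the submitters' processing notes, which give mm10, also name HISAT; versions were not given in the sources used here). FPKM is relative to each library's total, and no counts were used here.

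The 12621 genes whose mean reached 0.5 FPKM were fitted on the scale log2(FPKM + 0.5) with limma 3.58.1 in R 4.3.3 (lmFit, eBayes with an intensity trend), with Benjamini-Hochberg adjustment over all of them. The study's threshold, q below 0.05 and absolute log2 fold change above 1, came from a count model that FPKM does not allow. Fold changes on this scale are understated at low FPKM. A two-sided exact permutation test of 2 against 2 cannot give a p below 0.333. Whether the mice shared litters was not given, so p-values measure the spread between these mice. The fit was tested on simulated data with the same dispersion setting for all genes. The spread between these mice was uneven across genes, so that test cannot vouch for the calls here.

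The members and gene lists were chosen with earlier results of these data known. Named genes are the members, the 3 largest fold changes in each pathway list, pathway genes past it, all receptors, ligands and mucins, Rprd1b, and the 5 genes nearest to Muc4. The 6 ERK response genes, the 5 other early response genes, the goblet and enteroendocrine genes named and the Muc4 neighbours were chosen after their values were seen, as were Adam10 and Adam17. Gene positions and promoters are RefSeq's on GRCm38.p6, and exons are GENCODE M21's. Pseudocount, filter, scaling, variance trend, replicate block, each mouse and the fold limit were varied. Of the list genes, 12 were not analysed here, Erbb4, Nrg1 and Muc3 among them.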

Additional observations from a re-analysis of the deposited data

How the results depend on the processing

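The log2 fold change of Muc4 was -1.15 and lay between -1.17 and -1.09 under both other pseudocounts, both other filters, 3 scalings and the replicate block, and between -1.30 and -1.0 without any 1 mouse. Calls were far less steady. Without the filter on mean FPKM, 0 genes were lower, 0 higher and 0 members passed (smallest adjusted p 0.105, with 3570 of 18436 genes at an unadjusted p below 0.05). Without the intensity trend, 4 genes were lower, 0 higher and 0 members passed. TPM scaling left 84 genes lower. By adjusted p alone 337 were lower and 52 higher. Leaving out any mouse left between 0 and 0 genes lower, between 0 and 0 higher and between 0 and 0 members, with 1803 to 2379 genes at an unadjusted p below 0.05 and 1 residual degree of freedom, the lone mouse being assumed to vary like the other genotype. Fewer mice or more genes entered those fits, and for the other settings the cause was not tested.

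With the mouse number as a replicate block, 8 genes were higher, Muc4 was the 1 member to pass and 0 other pathway genes did. Same-numbered mice are different animals, and their deviations had a correlation of -0.03 over 12621 genes, so the number was not treated as a pairing. The scalings moved the median of all genes to at most 0.05. They left every member's sign as it was, and Erbb2 came to -0.01 with TPM scaling. Erbb3, Errfi1, Areg and Hbegf changed sign when 1 control mouse was left out. No other pathway gene passed under any alternative.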
